A study of Mus musculus with 3 samples.

Results

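The AP-1 and Batf transcription factor genes described here were taken by name from the count table: the Fos family members *Fos*, *Fosb* and *Fosl2*, the Jun family members *Jun*, *Junb* and *Jund*, and the Batf family members *Batf* and *Batf3*. All 8 were among the 18029 genes of the table, and all 8 passed the low-count filter in the summed counts of CD4+ and of CD8+ T cells. The cells came from an allogeneic bone marrow transplant (BMT) model of graft-versus-host disease, in which B6D2F1 recipients received B6 bone marrow, B6 T cells and a small number of TEa T cells, which carry a transgenic T cell receptor (TCR) for a recipient alloantigen. Recipients of the saline group received saline from day 0 to day 6, and the other groups received cyclosporine (CSA) on the same days at 5 mg/kg (lower dose) or 50 mg/kg (higher dose). Spleens were taken on day 7 from 6 mice per group and pooled from every 2 mice, which gave 3 hashtagged pools per group. Within a group, sorted CD4+ and sorted CD8+ cells were mixed and sequenced as 1 droplet capture, so the capture and the treatment cannot be told apart. The transplant, the donor strain and the TEa cells were common to all 3 groups, and untransplanted mice were not analysed here. Cells marked as TEa were left out of all sums below.

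AP-1 is a dimer of a Fos or Batf family protein with a Jun family protein, joined through a leucine zipper. In T cells it is induced by TCR signalling through MAP kinases and binds many cytokine genes together with NFAT, the factor that calcineurin activates and that CSA, a calcineurin inhibitor, keeps out of the nucleus. BATF lacks the transactivation domain of the FOS proteins, pairs with JUN proteins, binds DNA together with IRF4 or IRF8 and is needed for the differentiation of Th17, follicular helper and effector CD8+ T cells.

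The promoter sequences of 4 members are shown because these members moved in different directions with CSA. They hold 150 bases each from GRCm38.p6 (mm10) and run 5′ to 3′ on the strand of the gene. Each ends at the base before the RefSeq or the GENCODE transcription start, whichever lies further upstream. For *Fosb* and *Batf* this was the GENCODE start. Of the sequences below, the *Fosb* one lies at chr7:19310052-19310201 on the minus strand, the *Jun* one at chr4:95052223-95052372 on the minus strand, the *Junb* one at chr8:84978749-84978898 on the minus strand and the *Batf* one at chr12:85686519-85686668 on the plus strand. Capitals mark TGACG, a core that cyclic AMP response elements share, and in *Jun* TGACATCA, an octamer known to bind AP-1 and ATF dimers.
Fosb: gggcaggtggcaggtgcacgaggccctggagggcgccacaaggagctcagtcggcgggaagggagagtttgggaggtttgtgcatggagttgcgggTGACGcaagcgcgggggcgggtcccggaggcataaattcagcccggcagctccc
Jun: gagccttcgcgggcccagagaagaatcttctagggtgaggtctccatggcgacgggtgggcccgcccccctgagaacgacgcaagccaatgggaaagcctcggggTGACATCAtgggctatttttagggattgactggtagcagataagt
Junb: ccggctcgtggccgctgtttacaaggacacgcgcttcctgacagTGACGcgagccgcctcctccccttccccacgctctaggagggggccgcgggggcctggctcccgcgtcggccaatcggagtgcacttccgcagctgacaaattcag
Batf: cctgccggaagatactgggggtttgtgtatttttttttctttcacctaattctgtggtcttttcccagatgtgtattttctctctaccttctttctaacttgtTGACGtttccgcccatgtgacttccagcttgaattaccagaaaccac
Windows from 250 bases before to 50 bases after the RefSeq start were searched on both strands for all 8 members. The consensus AP-1 site TGANTCA was in 7.81% of all 32851 promoter windows of this length, the cyclic AMP response element TGACGTCA in 1.79% and the serum response factor site known as the CArG box in 1.63%, and none was found in the window of any of the 8 members. After the windows had been seen, TGACG, which is part of TGACGTCA, was found in *Fos*, *Fosb*, *Junb* and *Batf* and in 20.8% of all windows. TGACATCA was found in *Jun*, from 45 to 38 bases before the start, and in 3.62% of all windows. The absence of a motif says only that these letters are not in this window. For *Jund* the RefSeq start lay 1210 bases from the GENCODE start, so bases around the GENCODE start were not searched. The gene models lay on chromosome 12 for *Fos* (85473890 to 85477273) and *Batf* (85686669 to 85709087), on chromosome 8 for *Junb* (84974484 to 84978718) and *Jund* (70698949 to 70700616), on chromosome 7 for *Fosb* (19302696 to 19310051), on chromosome 4 for *Jun* (95049034 to 95052222), on chromosome 5 for *Fosl2* (32135801 to 32157842) and on chromosome 1 for *Batf3* (191097847 to 191108945).

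The sums held 10091 CD4+ and 10833 CD8+ T cells, with 692 to 1615 cells and 3994968 to 11454636 unique molecular identifiers (UMIs) per pool and lineage. Median UMIs per cell were 3097, 4396 and 5979.5 in CD4+ T cells under saline, lower dose and higher dose CSA, and 4108, 6121.5 and 7183 in CD8+ T cells. *Cd3e* was detected in every sum, at 949 to 1134 CPM (UMIs scaled to a common total). *Cd4* was at 0 in all sums of CD8+ T cells and *Cd8a* at 0 in all sums of CD4+ T cells. These zeros are no check of purity, since a selection of cells on these 2 genes would also give them. *Cd8b1* in CD4+ T cells was at 141 to 153 CPM under saline, 86.3 to 95.7 with the lower dose and 20.8 to 25.8 with the higher dose. In CD8+ T cells it was at 1265 to 1368, 1423 to 1460 and 2600 to 2856 CPM. The part of RNA from the other lineage in the changes of the members was not tested. Of the cell barcodes, 218 were shared by 2 captures. In these sums, fewer cells of a type and less RNA per cell cannot be told apart, and p-values measure only the spread between pools that shared a capture.

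With CSA the members separated into groups that moved in different directions. *Fosb* fell in both lineages at both doses, and *Jun* and *Fosl2* fell in both lineages at 50 mg/kg. *Jund* rose in both lineages at both doses. *Batf* rose at 5 mg/kg and was below its saline level at 50 mg/kg in both lineages. *Junb* rose relative to the median gene, but under scaling by library size alone its change lost significance except in CD8+ T cells at 50 mg/kg. *Fos* and *Batf3* passed the test in none of the comparisons between doses, although *Fos* passed under several of the alternatives given with its values. Levels are given as CPM adjusted by the trimmed mean of M values (TMM CPM), and changes are log2 changes from the edgeR quasi-likelihood test with Benjamini-Hochberg adjustment over all genes tested and a threshold of 0.05. In CD4+ T cells, 4 of the 8 members passed this test at 5 mg/kg, where 51.7% of all genes tested did, with 3 higher (26.1% of all genes) and 1 lower (25.6%). With the higher dose 6 passed beside 70.5% of all genes, with 2 higher (34.7%) and 4 lower (35.8%). Of the members in CD8+ T cells, 5 passed at 5 mg/kg beside 60.2% of all genes, with 3 higher (29.9%) and 2 lower (30.3%). With the higher dose 6 passed beside 74.0%, with 2 higher (37.1%) and 4 lower (36.9%). The share of members that passed was thus near that of all genes. The pools of 5 and 50 mg/kg did not overlap those of saline for 5 and 6 of the 8 members in CD4+ T cells, beside 57.7% and 72.7% of all genes. In CD8+ T cells this held for 6 members at each dose, beside 66.0% and 75.8%. Between the doses it held for 5 members in CD4+ (50.2% of all genes) and 3 in CD8+ T cells (49.0%). Both doses were compared with the same saline pools. Between 50 and 5 mg/kg, 4 members passed in CD4+ T cells beside 41.2% of all genes and 6 in CD8+ T cells beside 41.0%, a count that fell to 3 without pool 2 of 50 mg/kg.

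**Figure D1:**
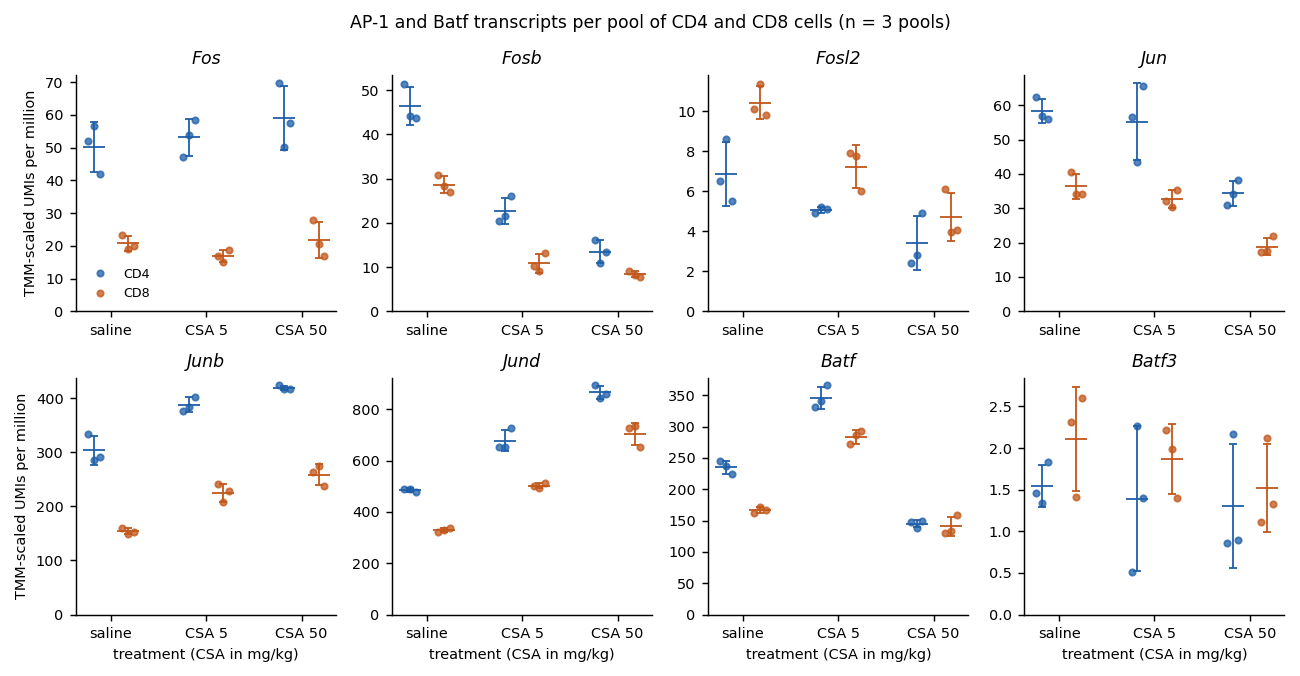
TMM CPM (vertical axis, starting at 0) of each member in each pool of CD4+ (blue) and CD8+ (orange) T cells by treatment, with each dot a pool and the lines the mean and SD of 3 pools. *Fosb* falls from 46.3 to 13.4 in CD4+ T cells between saline and 50 mg/kg, and *Batf* is highest at 5 mg/kg in both lineages, while *Batf3* stays under 3 TMM CPM.

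*Fosb* encodes an immediate early Fos protein with a short-lived transcript. In CD4+ T cells, its pools held 51.3, 44.0 and 43.7 TMM CPM under saline, 20.4, 21.5 and 26.0 with the lower dose, and 16.02, 10.8 and 13.4 with the higher dose. The ranges of the 3 groups did not overlap and stepped down with dose. *Fosb* fell by 1.01 ± 0.11 (SE) on the log2 scale at 5 mg/kg (edgeR, adjusted p = 2.57e-07) and by 1.78 ± 0.12 at 50 mg/kg (edgeR, adjusted p = 2.40e-11), and the higher dose lay below the lower one by a log2 change of -0.77 (edgeR, adjusted p = 0.000150). The CD8+ pools held 30.7, 28.4 and 26.9 TMM CPM under saline, 10.4, 9.05 and 13.1 with the lower dose, and 9.15, 8.23 and 7.76 with the higher dose. All CSA pools lay below all saline pools, whereas the ranges of the doses touched. The log2 change was -1.36 ± 0.12 at 5 mg/kg (edgeR, adjusted p = 2.34e-08) and -1.78 ± 0.12 at 50 mg/kg (edgeR, adjusted p = 1.93e-10). The CD8+ difference between doses, -0.42 (edgeR, adjusted p = 0.0337), lost significance without pool 3 of 5 mg/kg (-0.20, adjusted p = 0.406), without pool 2 or pool 3 of 50 mg/kg and without cycling clusters (-0.16, adjusted p = 0.657).

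*Fosl2* encodes a Fos-related antigen that also binds DNA as a partner of the Jun proteins, and its counts were low, at 14 to 58 UMIs per pool in CD4+ and 30 to 113 in CD8+ T cells. CD4+ pools held 6.49, 8.60 and 5.49 TMM CPM under saline, 4.91, 5.197 and 5.09 with the lower dose, and 2.41, 2.84 and 4.93 with the higher dose. Both doses lay below saline in every pool, and the doses overlapped. The change passed at 50 mg/kg (-0.997 ± 0.26; edgeR, adjusted p = 0.00163) and not at 5 mg/kg, where it was -0.44 with a 95% interval of -0.94 to 0.05 (edgeR, adjusted p = 0.150), although it passed with library size scaling (-0.80, adjusted p = 0.00885). CD8+ pools held 10.1, 11.4 and 9.79 TMM CPM under saline, 7.89, 7.78 and 5.99 with the lower dose, and 6.10, 3.98 and 4.09 with the higher dose. Here *Fosl2* fell by 0.56 ± 0.17 at 5 mg/kg (edgeR, adjusted p = 0.00906) and by 1.16 ± 0.17 at 50 mg/kg (edgeR, adjusted p = 8.86e-06). The fall at 5 mg/kg did not pass without pool 3 of that dose (-0.42, adjusted p = 0.0833) or without the cycling clusters (-0.52, adjusted p = 0.0919).

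*Fos*, the founding member of the family and an immediate early gene, had CD4+ pools of 51.9, 56.7 and 41.8 TMM CPM under saline, 47.0, 53.8 and 58.5 with the lower dose, and 69.6, 50.2 and 57.5 with the higher dose. The groups overlapped. At 50 mg/kg its log2 change was 0.24 with a 95% interval of 0.02 to 0.45 (edgeR, adjusted p = 0.0620), which passed without saline pool 2 (0.35, adjusted p = 0.0174) and without pool 2 of 50 mg/kg (0.34, adjusted p = 0.00925), without the cycling clusters (0.30, adjusted p = 0.0347), in cells with at least 2000 UMIs (0.31, adjusted p = 0.0166) and with no filter on low counts (0.23, adjusted p = 0.0139), and changed sign under library size scaling (-0.20, adjusted p = 0.105). CD8+ pools held 23.3, 19.1 and 19.9 TMM CPM under saline, 17.0, 15.0 and 18.7 with the lower dose, and 27.9, 20.4 and 17.0 with the higher dose. The pools of 5 mg/kg lay just below those of saline, with a log2 change of -0.28 and an interval of -0.58 to 0.03 (edgeR, adjusted p = 0.138), which became -0.70 and passed with library size scaling (adjusted p = 0.000766), and it also passed with no filter (-0.29, adjusted p = 0.0310) and in a fit of the 2 groups alone (-0.27, adjusted p = 0.0424). At 50 mg/kg the log2 change was 0.05 with an interval of -0.22 to 0.33 (edgeR, adjusted p = 0.743), and it was negative under library size scaling (-0.48, adjusted p = 0.00590). The CD8+ difference between doses passed without pool 3 of 50 mg/kg (0.50, adjusted p = 0.00731), without the cycling clusters (0.53, adjusted p = 0.0382) and with no filter (0.35, adjusted p = 0.0115).

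*Jun* encodes c-JUN, the main partner of FOS in activated T cells. Its CD4+ pools held 62.4, 56.8 and 55.9 TMM CPM under saline, 56.5, 43.4 and 65.7 with the lower dose, and 31.0, 34.0 and 38.2 with the higher dose. The saline and 5 mg/kg pools overlapped, and all pools of 50 mg/kg lay below both. At 50 mg/kg *Jun* fell by 0.75 ± 0.11 (edgeR, adjusted p = 3.42e-06), whereas at 5 mg/kg the log2 change was -0.06 with an interval of -0.27 to 0.15 (edgeR, adjusted p = 0.665). CD8+ pools held 40.5, 34.3 and 34.3 TMM CPM under saline, 32.1, 30.4 and 35.4 with the lower dose, and 17.2, 17.5 and 21.9 with the higher dose. The same order was seen, with a fall of 0.93 ± 0.10 at 50 mg/kg (edgeR, adjusted p = 2.67e-07) and a log2 change of -0.14 at 5 mg/kg (edgeR, adjusted p = 0.244). The doses differed from each other by -0.69 in CD4+ T cells (edgeR, adjusted p = 5.31e-05) and by -0.79 in CD8+ T cells (edgeR, adjusted p = 2.34e-05). Under library size scaling *Jun* also passed at 5 mg/kg, at -0.42 in CD4+ T cells (adjusted p = 0.00167) and -0.57 in CD8+ T cells (adjusted p = 8.16e-05).

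*Jund* encodes the Jun protein found in resting as well as activated cells, and it had 2024 to 6407 UMIs per pool. CD4+ pools held 489, 489 and 478 TMM CPM under saline, 653, 653 and 726 with the lower dose, and 894, 843 and 860 with the higher dose. The 3 groups did not overlap and stepped up with dose. The log2 change was 0.48 ± 0.04 at 5 mg/kg (edgeR, adjusted p = 4.54e-09) and 0.83 ± 0.04 at 50 mg/kg (edgeR, adjusted p = 1.48e-13). CD8+ pools stepped up likewise, from 320, 328 and 338 TMM CPM under saline to 499, 493 and 514 with the lower dose and 725, 734 and 654 with the higher dose. Their log2 changes were 0.61 ± 0.05 (edgeR, adjusted p = 2.14e-09) and 1.10 ± 0.04 (edgeR, adjusted p = 2.05e-13). With library size scaling the rises were smaller and still passed, at 0.12 and 0.40 in CD4+ and 0.19 and 0.57 in CD8+ T cells.

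*Junb* encodes a Jun protein that also takes part in Th2 cytokine expression and pairs with BATF. CD4+ pools held 334, 285 and 292 TMM CPM under saline, 376, 384 and 403 with the lower dose, and 424, 416 and 417 with the higher dose. On this scale *Junb* rose by a log2 change of 0.36 ± 0.05 (edgeR, adjusted p = 3.77e-06) and 0.47 ± 0.05 (edgeR, adjusted p = 2.51e-08), but under library size scaling the changes were 0.00070 (adjusted p = 0.991) and 0.03 (adjusted p = 0.555). Its CD8+ pools held 160, 149 and 152 TMM CPM under saline, 241, 208 and 228 with the lower dose, and 264, 274 and 237 with the higher dose. All CSA pools lay above saline, with log2 changes of 0.55 ± 0.06 (edgeR, adjusted p = 3.89e-07) and 0.75 ± 0.06 (edgeR, adjusted p = 2.03e-09), which became 0.12 (adjusted p = 0.0850) and 0.22 (adjusted p = 0.00336) under library size scaling.

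*Batf* had CD4+ pools of 245, 237 and 224 TMM CPM under saline, 331, 340 and 366 with the lower dose, and 147, 138 and 149 with the higher dose. The groups did not overlap, and their order did not follow the dose, since the lower dose lay above saline and the higher dose below it. The log2 change was 0.56 ± 0.05 at 5 mg/kg (edgeR, adjusted p = 3.83e-09) and -0.70 ± 0.05 at 50 mg/kg (edgeR, adjusted p = 8.93e-11). Between the doses *Batf* fell by 1.26 ± 0.05 (edgeR, adjusted p = 4.00e-14). Among CD8+ T cells the pools held 162, 172 and 166 TMM CPM under saline, 272, 286 and 293 with the lower dose, and 131, 133 and 159 with the higher dose. The groups again did not overlap, although pool 3 of 50 mg/kg came within a few TMM CPM of saline. The log2 changes were 0.77 ± 0.06 (edgeR, adjusted p = 4.74e-09) and -0.24 ± 0.06 (edgeR, adjusted p = 0.00177), and the higher dose was below the lower by -1.01 ± 0.06 (edgeR, adjusted p = 7.97e-10). Directions and calls were kept under library size scaling, at 0.20 and -1.13 in CD4+ and 0.34 and -0.77 in CD8+ T cells.

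*Batf3*, best known for its part in dendritic cell development and CD8+ T cell memory, had 2 to 13 UMIs per pool in CD4+ and 8 to 25 in CD8+ T cells. Its pools ranged from 0.516 to 2.26 TMM CPM in CD4+ and from 1.11 to 2.60 in CD8+ T cells, and the groups overlapped. Its log2 changes at 50 mg/kg were -0.25 in CD4+ (edgeR, adjusted p = 0.641) and -0.47 in CD8+ T cells (edgeR, adjusted p = 0.207), the latter -0.99 with library size scaling (adjusted p = 0.0105). The 95% intervals were -1.15 to 0.65 and -1.11 to 0.18.

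**Figure D2:**
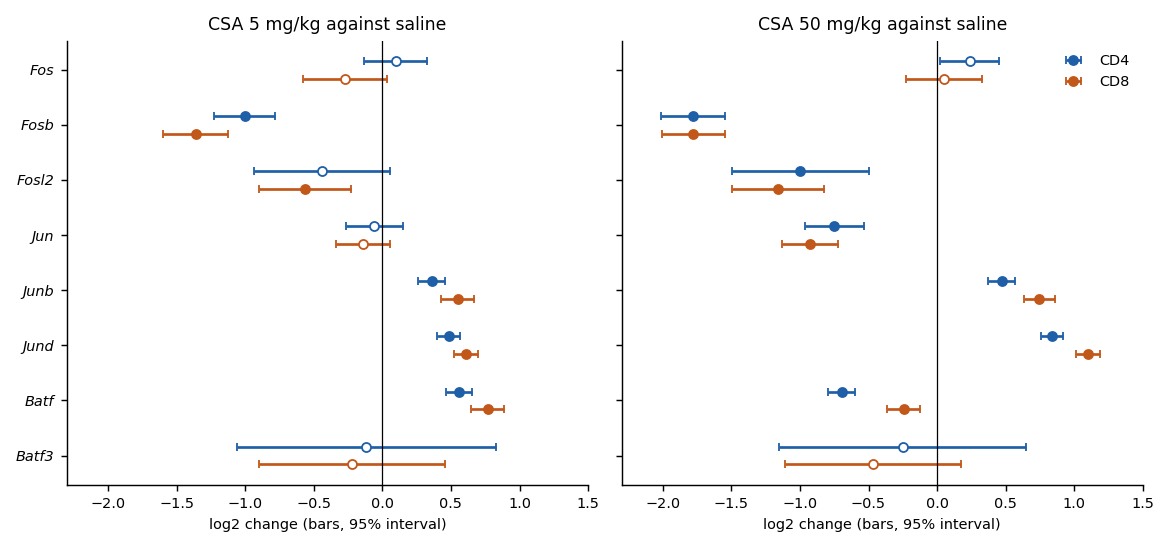
Log2 change against saline (horizontal axis, bars the 95% interval) of each member in CD4+ (blue) and CD8+ (orange) T cells at 5 mg/kg (left) and 50 mg/kg (right), filled where the edgeR test passed. *Batf* lies right of 0 at 5 mg/kg and left of 0 at 50 mg/kg, *Jund* lies right of 0 and *Fosb* left of 0 in all 4 comparisons, and *Junb*, right of 0 here, is near 0 in CD4+ T cells under library size scaling.

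The scale matters for the size of these changes. TMM factors were 1.20 to 1.25 under saline, 0.925 to 0.946 with the lower dose and 0.856 to 0.889 with the higher dose. Under library size scaling the median change of all genes was -0.37 and -0.45 in CD4+ and -0.43 and -0.53 in CD8+ T cells at 5 and 50 mg/kg, where TMM scaling put it within 0.02 of 0. Of the genes called in CD4+ T cells, 50.4% were higher at 5 mg/kg and 49.2% at 50 mg/kg with TMM, against 13.9% and 20.4% with library size scaling. Among CD8+ T cells these shares were 49.7% and 50.1%, against 15.8% and 19.9%. The changes of the members above and of the lists below are relative to the median gene.

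To compare the lineages, sums of CD4+ and CD8+ T cells of the same pool were fitted together. Under saline, 7 of the 8 members differed between the lineages, beside 40.4% of all genes. Of these, 6 were lower in CD8+ T cells, beside 18.9% of all genes, with log2 differences of -1.20 ± 0.10 for *Fos* (edgeR, adjusted p = 1.52e-10), -0.89 for *Junb*, -0.61 for *Jun* and *Fosb*, -0.48 for *Jund* and -0.41 for *Batf*. Without the cycling clusters the *Jun* difference was -0.28 (edgeR, adjusted p = 0.0171). *Fosl2* was the member higher in CD8+ T cells, by 0.68 ± 0.18 (edgeR, adjusted p = 0.00342). The log2 change in CD8+ minus that in CD4+ T cells passed at 50 mg/kg for 3 members, beside 19.8% of all genes. *Batf* fell less in CD8+ T cells, with a difference of the changes of 0.42 ± 0.07 (edgeR, adjusted p = 3.87e-05), and *Junb* and *Jund* rose more, with differences of 0.25 ± 0.06 (edgeR, adjusted p = 0.00567) and 0.24 ± 0.05 (edgeR, adjusted p = 0.00137). Without the cycling clusters the difference remained past the threshold for *Batf* and was -0.0042 for *Junb* (adjusted p = 0.988) and 0.15 for *Jund* (adjusted p = 0.112). At 5 mg/kg, 0 members passed in edgeR, beside 3.65% of all genes, and 4 of the 8 (*Fosb*, *Batf*, *Fos* and *Junb*) had an unadjusted p under 0.05, as did 16.2% of all genes.

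Captures differed in depth, so the share of cells with at least 1 UMI was also taken after thinning each cell to 2000 UMIs, which left out 395, 452 and 80 shallower CD4+ and 121, 83 and 8 CD8+ T cells under saline, lower dose and higher dose CSA. No cell type in these captures is known to lack these genes, so the share that free RNA gives was not measured. *Batf* was detected in 39.0% ± 2.01 (SD, n = 3) of CD4+ T cells under saline, 39.6% ± 2.50 with the lower dose and 21.6% ± 1.10 with the higher dose. At matched depth the fall at 50 mg/kg was therefore present in the share of cells, whereas the rise at 5 mg/kg was within the spread of the pools. Thinned shares compare with changes under library size scaling, where the CD4+ *Batf* rise at 5 mg/kg was 0.20, and not with TMM changes. Unthinned shares were 52.8%, 59.0% and 51.1%. In CD8+ T cells the thinned shares of *Batf* were 31.7% ± 2.18, 35.0% ± 1.31 and 20.1% ± 1.78. *Jund* was detected in 65.0%, 65.6% and 72.8% of thinned CD4+ T cells and in 54.1%, 57.5% and 64.4% of CD8+ T cells. *Junb* differed little, at 47.97%, 46.4% and 47.0% of CD4+ and 31.5%, 35.0% and 33.2% of CD8+ T cells. *Fosb* was detected in 10.98%, 4.29% and 2.31% of CD4+ and 7.05%, 1.77% and 1.52% of CD8+ T cells. *Jun* was detected in 13.8%, 10.0% and 6.28% of CD4+ and 8.52%, 6.68% and 3.33% of CD8+ T cells. For both genes the share of cells was thus lower at 50 mg/kg, as the summed level was.

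The authors divided the CD4+ T cells into 13 clusters and the CD8+ T cells into 9. Cells were clustered on these very counts, so levels between clusters are a description without a test, in CPM, here the gene's UMIs among all UMIs of the cluster. Under saline, *Batf* was highest in the CD4 cytotoxic cluster C7 (436 ± 57.5) and the Tcf7-high precursor-like cluster C2 (380 ± 73.8) and lowest among CD4+ clusters with 3 pools in the naive cluster C9 (196 ± 46.6). Of the 12 pairs of neighbours in this order, 10 overlapped. In CD8+ T cells *Batf* was highest in the Tcf7-high cluster C5 (308 ± 52.8) and lowest in the naive cluster C7 (112 ± 20.6), and 5 of 8 pairs of neighbours overlapped. *Jun* had another order, with the naive clusters highest, at 207 ± 50.8 in CD4 C9 and 223 ± 32.7 in CD8 C7. After C9 and the small Th17 cluster C12, the follicular helper cluster C4 followed at 121 ± 9.39, and the cycling cluster C3 was lowest at 24.9 ± 7.19. The highest level was 8.34 times the lowest for *Jun* in CD4+ and 7.34 times in CD8+ clusters, whereas over the clusters with 3 pools the ratios for *Jund* were 2.07 and 1.55. *Fos* and *Junb* were also highest in the naive CD4 cluster C9, at 136 ± 20.7 and 757 CPM. *Fosb* was highest in the follicular helper cluster C4 (99.9), where it was 107 with the lower dose and 6.72, from 1 UMI, with the higher dose. *Batf3* was highest in the Fcer1g-high clusters in all 3 groups, at 17.2 ± 6.68, 11.98 ± 13.4 and 25.5 ± 9.26 CPM in CD4 C8 and at 12.3 ± 7.64, 18.5 ± 4.91 and 22.9 ± 4.89 in CD8 C6, from 9 to 30 UMIs in all.

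**Figure D3:**
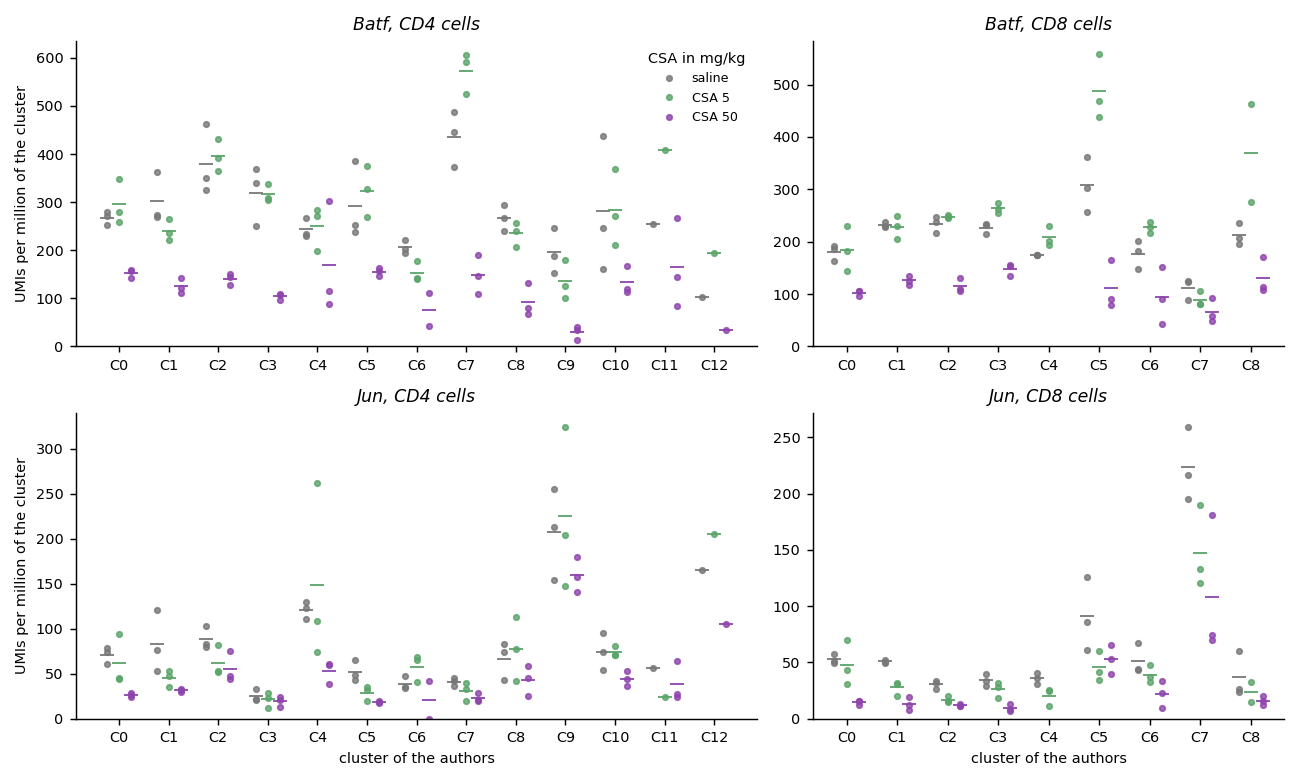
Level of *Batf* (top) and *Jun* (bottom) in CPM of the cluster in CD4+ (left) and CD8+ (right) clusters by treatment, with each dot a pool with at least 10 cells of the cluster and each line the mean. *Batf* under 50 mg/kg (purple) lies below saline (grey) in most clusters and *Jun* is highest in the naive clusters C9 of CD4+ and C7 of CD8+ T cells, at 207 and 223 under saline.

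Within clusters, 1 fit per cluster asked whether the members changed at a fixed cluster identity. At 50 mg/kg, 2.88% to 54.8% of all genes passed in the 11 CD4+ clusters that could be fitted and 3.52% to 58.9% in the 8 CD8+ clusters, so clusters differed in how many genes could be called. Over all genes and clusters together, 14.8% of tests were higher and 15.4% lower in CD4+ clusters, and 21.3% were higher and 22.1% lower in CD8+ clusters. *Batf* fell in 9 of 11 CD4+ clusters, with a median log2 change of -1.14 over the 11. The fall was 2.60 ± 0.42 in the naive cluster C9 (edgeR, adjusted p = 3.36e-07), 1.44 ± 0.12 in the cycling cluster C3 (edgeR, adjusted p = 2.24e-09) and 0.35 ± 0.12 in the Cd226-high effector cluster C0 (edgeR, adjusted p = 0.0107). With DESeq2 the falls in C0 (-0.33, adjusted p = 0.0620) and C10 (adjusted p = 0.0674) did not pass, nor did that in C10 with no filter on low counts (-0.78, adjusted p = 0.145), and with library size scaling the value in C0 was -0.81. In the clusters that did not pass, the values were -0.18 in the follicular helper cluster C4 and -1.33 in the cycling cluster C6, which held 34 cells at 50 mg/kg. Among CD8+ T cells *Batf* fell in 3 of 8 clusters, the Cd226-low effector cluster C1 (-0.68), the cycling cluster C2 (-0.64) and the Tcf7-high cluster C5 (-0.87), and the other 5 had values of -0.72 to -0.16. At 5 mg/kg the shares over all genes and clusters were 7.49% higher and 5.53% lower in CD4+ and 11.0% higher and 9.46% lower in CD8+ clusters, and *Batf* rose in 3 of 11 CD4+ clusters (C0, C5 and C7) and in 6 of 9 CD8+ clusters. Of these rises, 2 in CD4+ clusters (C0 and C5) and 3 in CD8+ clusters (C0, C2 and C6) did not pass with library size scaling, and 2 in CD8+ clusters (C0 and C6) did not pass with DESeq2. The largest of these rises were in CD8 C8, the exhausted cluster (1.07 ± 0.24; edgeR, adjusted p = 0.00254), and CD8 C5 (1.06 ± 0.12; edgeR, adjusted p = 2.15e-08). In CD8 C5 the mean level in CPM went from 308 under saline to 488 with the lower dose and 112 with the higher dose, and in CD4 C7 it went from 436 to 574 and 148. These levels are scaled by library size and not by TMM, so they do not give the sizes of the log2 changes above.

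*Jund* rose at 50 mg/kg in 9 of 11 CD4+ clusters and in 7 of 8 CD8+ clusters, by up to 1.05 in CD4 C0 and 1.20 in CD8 C0, both Cd226-high effectors. *Junb* rose in 4 of 11 and 4 of 8 clusters. With library size scaling its rises in CD4 C8, CD8 C2 and CD8 C3 did not pass. Those of *Jund* in CD4 C8, CD4 C9 and CD8 C8 did not pass on that scale either. The *Junb* rise in CD4 C8 also did not pass with DESeq2. With no filter on low counts, the rises of both genes in CD4 C4 did not pass. *Fosb* could be tested in fewer clusters and fell in 7 of 9 CD4+ and 5 of 6 CD8+ clusters, among them the CD8 cycling cluster C3 (-1.86 ± 0.34; edgeR, adjusted p = 3.14e-05). In the follicular helper cluster the change was -3.22 ± 0.96 (edgeR, adjusted p = 0.0109), where the higher dose had 1 UMI in 45 cells, and with DESeq2 it was -3.12 and did not pass (adjusted p = 0.0540). The falls in CD4 C3, CD4 C7 and CD8 C8 did not pass with DESeq2 either. *Jun* fell in 3 of 10 CD4+ clusters, the effector clusters C0 (-0.97) and C1 (-1.23) and the cycling cluster C5 (-1.15), and in 5 of 7 CD8+ clusters, most in the Cd226-low effector cluster C1 (-1.78 ± 0.27; edgeR, adjusted p = 2.17e-06). *Fosl2* could be tested in 3 CD8+ clusters at 50 mg/kg and fell in 2 of them, C0 (-1.77) and C2 (-1.57). *Fos* rose in CD4 C0 (0.61; edgeR, adjusted p = 0.0150), CD4 C5 (0.79; edgeR, adjusted p = 0.0487) and CD8 C0 (0.61; edgeR, adjusted p = 0.0469) and fell in the exhausted CD8 cluster C8 (-1.25; edgeR, adjusted p = 0.0270). With DESeq2 these 4 changes did not pass (adjusted p = 0.0743, 0.160, 0.222 and 0.123), and the 3 rises did not pass with library size scaling (adjusted p = 0.590, 0.362 and 0.880). Counts of rises within clusters at 5 mg/kg, 9 in CD4+ and 15 in CD8+ over all members, became 1 and 5 with library size scaling, and counts of falls, 4 and 6, became 11 and 12.

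**Figure D4:**
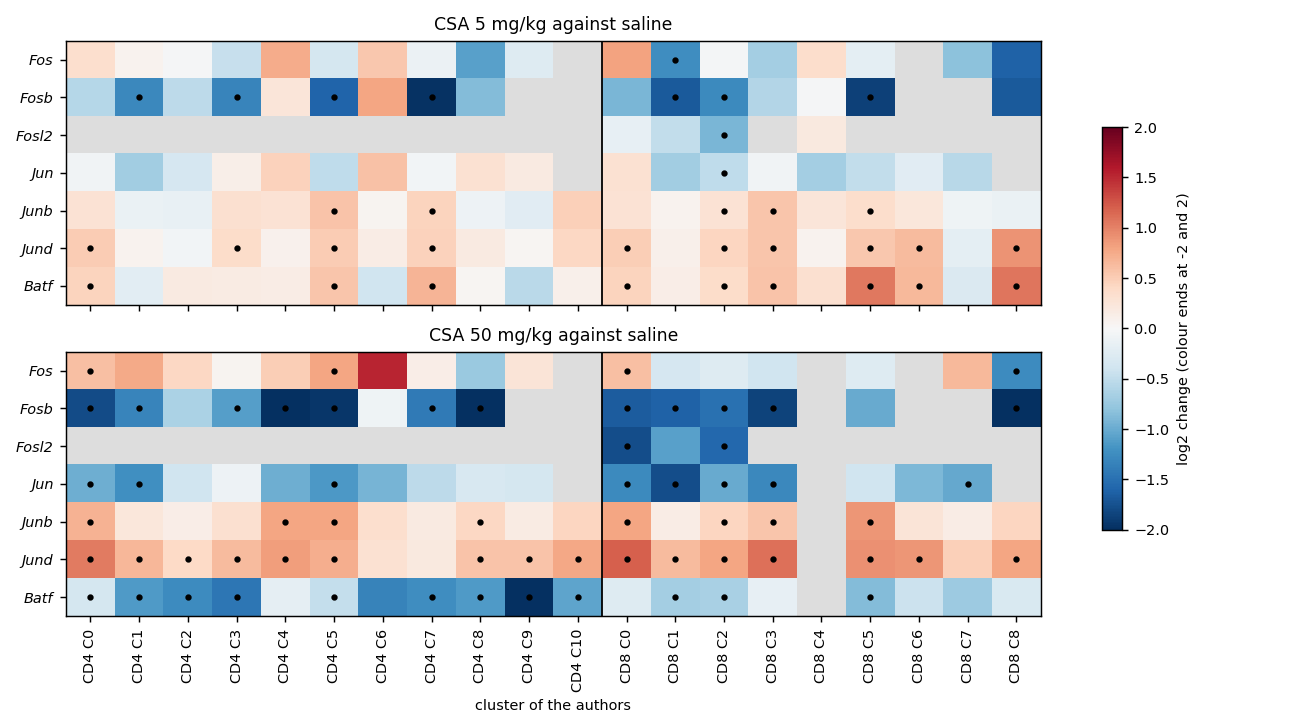
Log2 change against saline (colour, ends at -2 and 2) of 7 members (rows) in each CD4+ and CD8+ cluster (columns) at 5 mg/kg (top) and 50 mg/kg (bottom), with a dot where the edgeR test of that cluster passed and grey where the gene or cluster could not be fitted. *Batf* is blue with 9 dots in CD4+ clusters at 50 mg/kg and *Jund* is red with 9, while *Junb* and *Jund* rises at 5 mg/kg are fewer and are lost in part under library size scaling.

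Cluster shares differed between treatments as well. Of CD4+ T cells, the Cd226-high effector cluster C0 made up 25.8% ± 1.41 (SD, n = 3) under saline and 12.6% ± 2.86 at 50 mg/kg, and the follicular helper cluster C4 18.1% ± 0.710 and 1.47% ± 0.367. Of CD8+ T cells, the cycling cluster C4 made up 21.9% ± 1.36 and 0.567% ± 0.0480. Each mean change was therefore split into the part given by shares of UMIs per cluster at saline levels and the part given by levels within clusters, both as percent of the saline level. For *Batf* in CD4+ T cells at 50 mg/kg, shares gave 8.40% and levels within clusters -46.7%, which together made -38.3%. For *Jund* nearly all of the CD8+ change of 114% at 50 mg/kg lay within clusters (110%), and in CD4+ T cells 81.1% within clusters stood against -2.74% from shares. *Fosb* in CD4+ T cells was divided, with -28.3% from shares and -42.7% within clusters at 50 mg/kg, and -25.7% and -25.4% at 5 mg/kg. *Fos* in CD4+ T cells at 50 mg/kg combined opposite parts, -22.7% from shares and 40.6% within clusters. For *Jun* at 50 mg/kg, shares gave -16.9% and levels within clusters -24.1% in CD4+ T cells, but in CD8+ T cells shares gave 1.93% and levels within clusters -50.0%. All these parts are on the TMM scale, and the choice of scale falls almost wholly on the part within clusters. With library size scaling at 50 mg/kg, *Fos* in CD4+ T cells had 9.68% within clusters and a whole change of -13.0%. On that scale *Jund* had 34.3% within clusters in CD4+ and 43.8% in CD8+ T cells, and *Batf* had -62.9% in CD4+ T cells. Cycling clusters together held 21.7%, 23.1% and 33.1% of CD4+ and 53.3%, 49.3% and 45.1% of CD8+ T cells under saline, lower dose and higher dose CSA. The summed level of 3 cycling markers was at 1446 to 1590, 847 to 1015 and 806 to 884 CPM in CD4+ and 2351 to 2515, 1267 to 1416 and 785 to 907 CPM in CD8+ T cells.

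**Figure D5:**
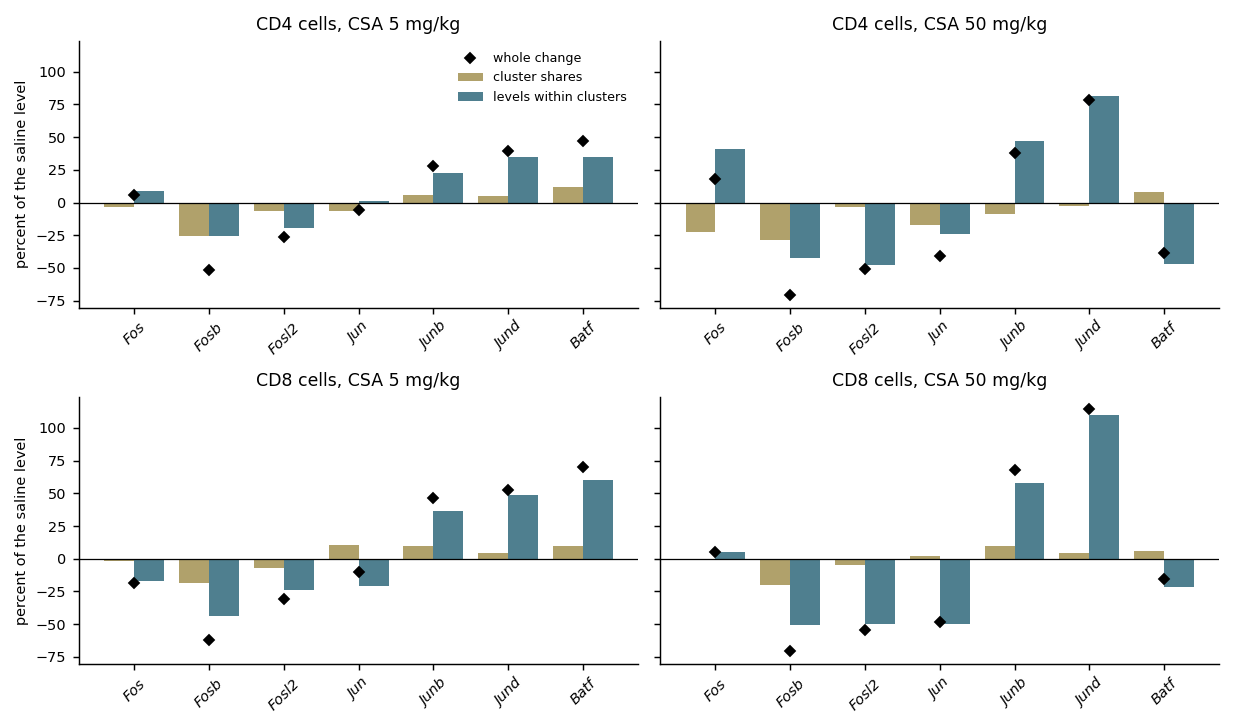
Change of the mean TMM-scaled level against saline, in percent of the saline level, for 7 members by lineage and dose, with tan bars the part from cluster shares, blue bars the part from levels within clusters and diamonds their sum. For *Batf* at 50 mg/kg in CD4+ T cells the parts have opposite signs (8.40% and -46.7%), whereas for *Fosb* both are below 0 (-28.3% and -42.7%), and under library size scaling the summed *Junb* change in CD4+ T cells is near 0.

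Genes of the pathway around AP-1 were followed as lists, with the genes named being the largest rises and falls at 50 mg/kg. Their counts stand beside shares of all genes that rose and fell of 34.7% and 35.8% in CD4+ and 37.1% and 36.9% in CD8+ T cells at 50 mg/kg with TMM scaling, and of 15.1% and 59.0% in CD4+ and 15.6% and 62.7% in CD8+ T cells with library size scaling. Under library size scaling at 5 mg/kg, 8.76% of all genes rose and 54.1% fell in CD4+ T cells, and 10.9% rose and 57.8% fell in CD8+ T cells. Of 25 kinases and factors upstream of AP-1, 5 rose and 16 fell in CD4+ T cells at 50 mg/kg, with a median log2 change of -0.39 against -0.01 for all genes, and 5 rose and 15 fell in CD8+ T cells. Under library size scaling 2 rose and 19 fell in CD4+ and 2 rose and 22 fell in CD8+ T cells, where most genes fell on that scale. *Elk4*, which binds with serum response factor at immediate early promoters, went from 109 ± 3.06 (SD, n = 3) to 28.8 ± 2.91 TMM CPM in CD4+ T cells, a fall of 1.92 ± 0.08 (edgeR, adjusted p = 1.28e-14), and fell by 1.64 in CD8+ T cells. The kinase genes *Map3k1* (-1.28 and -1.10) and *Braf* (-1.25 and -1.47) fell in both lineages. *Map2k2*, which encodes MEK2, rose by 0.80 and 0.87, *Hras* by 0.74 and 0.80, and the p38 activator *Map2k6* by 0.60 and 0.54, of which *Map2k6* did not pass in either lineage under library size scaling (0.16 and 0.01).

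Of the other bZIP genes, 16 were tested in CD4+ T cells, where 4 rose and 7 fell at 50 mg/kg, and 17 in CD8+ T cells, where 3 rose and 7 fell. Under library size scaling these counts were 1 and 10 in CD4+ and 0 and 12 in CD8+ T cells, shares of falls near those of all genes on that scale. *Atf5* rose by 1.06 and 0.89 from 2.89 and 3.51 TMM CPM, which under library size scaling became 0.62 (adjusted p = 0.0398) and 0.36 (adjusted p = 0.0681, not passing), and *Atf4*, a mediator of the amino acid response, by 0.46 and 0.58, although *Atf4* was at 0.03 and 0.05 under library size scaling and did not pass. *Jdp2*, which can pair with Jun proteins, rose in CD4+ T cells (0.61), and *Maf* rose in CD8+ T cells (0.68), which became 0.17 and 0.15 under library size scaling and did not pass. *Atf7* (-1.36 and -1.60) and *Creb1* (-0.94 and -1.01) fell in both lineages, *Bach1* fell in CD4+ T cells (-1.34) and *Atf6* in CD8+ T cells (-0.88). Of the DNA-binding partners of BATF, *Irf4* had 33.4 ± 5.53, 19.0 ± 0.158 and 21.8 ± 3.38 TMM CPM in CD4+ T cells under saline, lower dose and higher dose CSA. It fell at both doses, by 0.81 and 0.60, and in CD8+ T cells by 0.64 and 0.87, so at 5 mg/kg it moved opposite to *Batf*. *Irf8* rose by 0.69 ± 0.11 in CD4+ T cells at 50 mg/kg (edgeR, adjusted p = 1.16e-05) and fell by 0.53 ± 0.08 in CD8+ T cells (edgeR, adjusted p = 7.64e-06). Under library size scaling the rise was 0.25 and only just passed (edgeR, adjusted p = 0.04998), and the CD8+ change was -1.06.

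Of genes known to hold composite NFAT and AP-1 sites or to need both factors, 13 were tested in CD4+ T cells, and 5 rose and 1 fell at 5 mg/kg while 0 rose and 6 fell at 50 mg/kg. Of all genes with TMM scaling, 26.1% rose and 25.6% fell at 5 mg/kg. Under library size scaling 3 rose and 4 fell at 5 mg/kg, and 0 rose and 10 fell at 50 mg/kg. The chemokine gene *Xcl1* went from 31.9 ± 1.99 under saline to 38.9 ± 13.8 and 1.70 ± 0.633 TMM CPM, *Csf2* from 31.4 ± 14.0 to 66.4 ± 23.4 and 11.1 ± 3.18, and *Il4* from 3.00 ± 0.959 to 6.79 ± 3.33 and 1.19 ± 1.03. Each of these was thus highest at 5 mg/kg and lowest at 50 mg/kg, although the *Xcl1* difference at 5 mg/kg did not pass (edgeR, adjusted p = 0.0879). In CD8+ T cells 10 were tested, and 5 rose and 2 fell at 5 mg/kg while 3 rose and 7 fell at 50 mg/kg, and with library size scaling 1 rose and 4 fell and then 1 rose and 8 fell. The chemokine genes *Ccl4* (1.22) and *Ccl3* (0.66) and the activation marker gene *Cd69* (0.27) were those that rose, of which *Ccl3* was at 0.13 (adjusted p = 0.510) and *Cd69* at -0.26 (adjusted p = 0.000467) under library size scaling, and *Xcl1* (-2.88), *Cd40lg* (-2.57) and *Csf2* (-1.57) were the largest falls. Of 10 genes known to depend on BATF, 1 rose and 6 fell in CD4+ T cells at 50 mg/kg, and of 9 tested in CD8+ T cells 1 rose and 5 fell, and with library size scaling 1 rose and 8 fell in CD4+ and 0 rose and 7 fell in CD8+ T cells. *Il21* fell by 4.30 ± 0.18 in CD4+ T cells (edgeR, adjusted p = 8.08e-15) and *Bcl6*, the defining factor of follicular helper cells, fell by 2.48 ± 0.16 (edgeR, adjusted p = 1.78e-11), while *Gzmb* rose by 1.11 ± 0.07 (edgeR, adjusted p = 4.76e-12). *Il17a* was at 0 in every CD4+ pool of 50 mg/kg, at 0.748 ± 1.17 TMM CPM under saline and at 2.69 ± 1.66 with the lower dose. It passed the low-count filter only with the help of the pools of 5 mg/kg, where it was highest. Its test at that dose is therefore not read as a result. In CD8+ T cells *Bcl6* fell by 1.41 and *Prdm1* by 1.28, *Il21* was at 5.24 ± 1.06 under saline and 0.034 ± 0.059 TMM CPM at 50 mg/kg, and *Maf* rose with TMM scaling. At 5 mg/kg, 4 of these genes rose and 3 fell in CD4+ T cells, with *Il17a* counted among the rises. In CD8+ T cells 2 rose and 3 fell, beside 29.9% and 30.3% of all genes. The falls at 5 mg/kg included *Il21* (-0.49) and *Bcl6* (-0.59) in CD4+ and *Il21* (-0.78) and *Prdm1* (-0.74) in CD8+ T cells. With library size scaling 1 rose and 5 fell in CD4+ and 2 rose and 7 fell in CD8+ T cells at this dose. *Bcl6* and *Il21* mark the follicular helper cluster, whose share of CD4+ T cells was also lower at 50 mg/kg.

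*Fos*, *Fosb*, *Jun* and *Junb* are among the genes that tissue dissociation induces, so 22 other dissociation and stress genes were followed. Of the 19 tested, 11 rose and 1 fell in CD4+ T cells at 5 mg/kg and 8 rose and 5 fell at 50 mg/kg, and in CD8+ T cells 11 rose and 2 fell and then 11 rose and 5 fell. Of all genes with TMM scaling, 26.1% rose and 25.6% fell in CD4+ T cells at 5 mg/kg, and 34.7% and 35.8% at 50 mg/kg. In CD8+ T cells these shares were 29.9% and 30.3%, and then 37.1% and 36.9%. The direction depended on the scale, as it did for all genes, and with library size scaling 2 rose and 9 fell in each lineage at 5 mg/kg, and at 50 mg/kg 2 rose and 11 fell in CD4+ and 3 rose and 9 fell in CD8+ T cells. *Ier2*, an immediate early gene, rose by 0.84 and 0.99 at 50 mg/kg in CD4+ and CD8+ T cells, *Zfp36* by 0.49 and 0.87, *Dnajb1* by 0.73 in CD4+ and *Hspe1* by 0.71 in CD8+ T cells, and under library size scaling *Zfp36* in CD4+ T cells was at 0.05 and did not pass. *Nfkbia* (-0.84 in CD4+), *Socs3* (-0.76 and -0.67), *Hsph1* (-0.46 and -0.46) and *Hsp90aa1* (-0.38 in CD8+) fell. The summed level of the list in CPM ranged from 7393 to 7994 under saline, 6921 to 7528 with the lower dose and 5922 to 6468 with the higher dose in CD4+ T cells, and from 6971 to 7692, 6419 to 6566 and 5200 to 5875 in CD8+ T cells. The part of dissociation in the changes of the members was not tested.

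Markers of other cells were followed in the same sums. Summed over 4 genes, erythroid markers were at 3.21 to 14.0 CPM under saline, 4.39 to 6.36 with the lower dose and 26.1 to 34.8 with the higher dose in CD4+ T cells, and at 3.63 to 17.2, 4.75 to 9.73 and 23.1 to 45.6 in CD8+ T cells. B cell markers (4 genes) reached 13.8 in CD4+ and 30.5 in CD8+ T cells. Myeloid markers (6 genes) were at 79.9 to 202 in CD4+ and 126 to 163 in CD8+ T cells, and NK cell markers (2 genes) reached 11.2. Dendritic cell markers (5 genes), which bear on *Batf3*, were at 4.39 to 20.1 in CD4+ and 51.7 to 134 in CD8+ T cells, with *Flt3* at 0 in all sums. *Clec9a* and *Siglech* were also at 0 in all CD4+ sums, so the CD4+ level came from *Itgax* and *Xcr1* alone. In CD8+ T cells *Siglech* was at 0 under saline and with the lower dose, and *Clec9a* with the lower dose. The part of other cells in the changes of the members was not tested.

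For each member, the genes with the most similar pattern were sought among 3192 genes by Pearson's r of log2(CPM + 1) over the 18 sums. These sums span both lineages and share pools, captures and depth, so r is a description and a difference between lineages alone can make it high. The closest genes were *Chd1* (r = 0.988), *Ddx50* and *Aebp2* to *Fosb*, *Adipor2* (r = 0.978), *Inpp4b* and *Ctsb* to *Jun*, and *Ptpn22* (r = 0.948), *Smc1a* and *Adam19* to *Fosl2*. *Lat* (r = 0.958), *Tnfaip8l2* and *Rabac1* were closest to *Jund*, *Traf1* (r = 0.988), *Cd4* and *Slfn2* to *Junb*, and *Ndfip1* (r = 0.953), *Slfn1* and *H2-Q4* to *Fos*. The value for *Cd4* follows the lineages, since *Cd4* was at 0 in all sums of CD8+ T cells. Within CD4+ T cells *Cd4* went from 725 to 773 CPM under saline to 315 to 329 at 50 mg/kg, while *Junb* did not fall. *Batf* was closest to *Rilpl2* (r = 0.977), *Ifitm3* and *Serpina3g*. For *Batf3* the highest r was 0.715, with *Etfa*.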

How the data were processed

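Single-cell RNA was measured by droplet 5′ sequencing of hashtagged CD4+ and CD8+ T cells in 3 captures. Per the labels, the authors aligned reads to mm10 with Cell Ranger and clustered cells in Seurat 3.0.0, and the deposited values are UMI counts per gene and cell. The deposited cell table also holds other values (pool, lineage, cluster and TEa columns) and a fraction of mitochondrial UMIs, as the authors made them. CD8+ cluster numbers were matched to the cluster names by their cell numbers per group. Of 21204 cells, 280 TEa cells were left out and the other 20924 were summed per pool and lineage. The genes and gene lists were chosen with earlier results of these data known. Only genes named by rule were printed: all 8 members, and per list the 3 largest rises and falls at 50 mg/kg.

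Summed counts (10568 genes in CD4+ and 10841 in CD8+ T cells after filterByExpr) were tested with the edgeR 4.0.16 quasi-likelihood test, TMM scaling and Benjamini-Hochberg adjustment over all genes tested in R 4.3.3, with 3 groups in 1 fit per lineage. The fit of both lineages (11001 genes) held 18 sums with the pool as a block and a treatment by lineage interaction, and each cluster was fitted alone on pools with at least 10 cells. Alternatives were DESeq2 1.42.0, library size scaling, no low-count filter, only the 2 groups compared, the pool number as a block, no cycling clusters, cells of at least 2000 UMIs, TEa cells included, no cells with a strong second hashtag, and each pool left out in turn. On simulated data for 50 mg/kg against saline, 200 of 200 genes with a log2 change of 1 were recovered, with 10 false calls among 10446 genes in CD4+ and 7 among 10709 in CD8+ T cells. The simulation changed few genes, equally up and down and none of low count, and it held no difference between captures. It therefore does not cover *Fosl2* and *Batf3*, the choice of scale or the large share of genes called in the data. Pool numbers were not treated as pairs across groups in the main fits. The deviations of sums with the same number had r of -0.12 to 0.01 in CD4+ and -0.26 to 0.14 in CD8+ T cells, where the highest values were 0.14, 0.12 and 0.12. In each capture the share of cells with a strong second hashtag rose with the pool number, from at most 0.211% in pool 1 to at least 4.43% in pool 3. Depth was 3994968 to 11454636 UMIs per sum, and intervals on TEa cells cover counting error only. Promoter windows came from RefSeq for GRCm38.p6.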

Additional observations from a re-analysis of the deposited data

Results flagged for a closer look

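For 3 members, the change at 50 mg/kg differed between the lineages by the interaction test. The log2 change in CD8+ T cells minus that in CD4+ T cells was 0.42 for *Batf*, whose fall was smaller in CD8+ T cells, 0.25 for *Junb* and 0.24 for *Jund*, whose rises were larger there. Without the cycling clusters, which held 53.3% of CD8+ and 21.7% of CD4+ T cells under saline, *Junb* was at -0.0042 and *Jund* at 0.15, and neither passed.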

How the results depend on the processing

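Pools held 2 to 25 UMIs of *Batf3* and 14 to 113 of *Fosl2*. With the pool number as a replicate block, all 48 calls of members between doses stayed as they were, with 4, 6 and 4 members passing in CD4+ and 5, 6 and 6 in CD8+ T cells, and the fit of both lineages without the pool as a block kept 7, 0 and 3. Leaving out 1 pool gave 3 to 6 members passing between doses in CD8+ T cells, the 3 being without pool 2 of 50 mg/kg. Without cycling clusters, 1 member (*Batf*) differed in its change at 50 mg/kg between lineages, and *Junb* was at -0.0042. Library size scaling turned *Fos* to -0.26 and -0.20 in CD4+ T cells at 5 and 50 mg/kg and to -0.48 in CD8+ T cells at 50 mg/kg, and turned *Junb* at 5 mg/kg to -0.0064 in CD8 C2 and -0.063 in CD8 C5. Within clusters at 5 mg/kg, rises went from 9 to 1 in CD4+ and from 15 to 5 in CD8+ T cells with library size scaling, and falls from 4 to 11 and from 6 to 12, while DESeq2 gave 1 and 2 falls. At 50 mg/kg in CD8+ T cells, falls went from 16 to 25 with library size scaling. Leaving out 1 pool changed the sign of values that did not pass, in ranges of -0.027 to 0.21 for *Fos*, -0.23 to 0.086 for *Jun* and -0.57 to 0.21 for *Batf3* in CD4+ T cells at 5 mg/kg, -0.68 to 0.32 for *Batf3* between doses there, and -0.15 to 0.22 for *Fos* in CD8+ T cells at 50 mg/kg. For CD8+ minus CD4+ changes the ranges were -0.55 to 0.24 for *Batf3* at 5 mg/kg and, at 50 mg/kg, -0.13 to 0.045 for *Fosb*, -0.60 to 0.30 for *Fosl2* and -0.36 to 0.024 for *Batf3*. Between 50 and 5 mg/kg in CD8+ T cells, *Fosb* (adjusted p = 0.112) and *Fosl2* (adjusted p = 0.0672) did not pass with DESeq2, nor did *Junb* with library size scaling (adjusted p = 0.241). The cause of these changes was not tested.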

Other observations

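TEa T cells, which all carry the same transgenic TCR, were summed per group and not tested, with 123, 130 and 27 cells under saline, lower dose and higher dose CSA. *Batf* was at 268 CPM under saline (exact Poisson interval 226 to 316, for counting error only), 287 with the lower dose (251 to 328) and 82.7 with the higher dose (49.8 to 129). The interval at 50 mg/kg lay below the others, while those of saline and 5 mg/kg overlapped. *Fosb* was at 41.5 (26.0 to 62.8), 23.5 (13.9 to 37.2) and 17.4 (4.74 to 44.6) CPM, with overlapping intervals. *Jund* was at 528, 677 and 714, *Junb* at 273, 325 and 361, and *Jun* at 43.4, 51.0 and 30.5. *Fosl2* had 0 UMIs at 50 mg/kg, with an exact Poisson interval of 0 to 16.1 CPM.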
